A study of Sus scrofa with 5 samples.

Results

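Lymphatic endothelial cells were a rare population of the piglet cecum libraries. They were chosen by measured counts of 6 genes, as barcodes with at least 200 detected genes, at least 1 unique molecular identifier (UMI, 1 counted transcript molecule) of PROX1, at least 3 UMIs summed over PROX1, MMRN1, LYVE1 and FLT4, and none of EPCAM or PTPRC. This rule found 152 of 72701 kept barcodes. The rule genes are therefore given below as a description with no test.

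Lymphatic endothelium lines the vessels that drain fluid, absorbed lipid and immune cells from the gut wall. PROX1, a homeobox transcription factor, sets and keeps its identity, and signalling from VEGFC through its receptor FLT4 (VEGFR3) drives its growth. The initial vessels take up fluid and attract leukocytes with the chemokine CCL21, and collecting vessels carry valves whose cells need FOXC2, GATA2 and gap junction proteins such as GJA4.

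The study profiled cecum cells of Large White piglets, labelled male, with droplet single-cell RNA sequencing that reads the 3′ ends of transcripts. The piglets received maternal milk only and were sampled at 0, 1, 7, 14 and 21 days of age (d0, d1, d7, d14 and d21). For each age, the cells from 5 animals went into a single library, so each age was 1 sample without replicates, and age and library cannot be told apart. The tissue was washed and scraped, and cells were released with EDTA and then trypsin, a preparation aimed at the mucosal surface that limits how well the counts reflect vessels in the wall.

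The kept barcodes numbered 15218 at d0, 14142 at d1, 10272 at d7, 16177 at d14 and 16892 at d21, and their total counts ranged from 47921183 at d7 to 91863866 at d14. The study's methods name a smaller number of cells per library, and which barcodes held intact cells was not tested. Between libraries, 576 kept barcode sequences were shared, but none belonged to a lymphatic endothelial cell. No doublet caller was run.

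The label held up on genes the rule did not use. At least 1 UMI of the general endothelial genes PECAM1, CDH5, TIE1, EGFL7, ESAM or CLDN5 was found in 149 of the 152 cells, and at least 2 UMIs in 143. PECAM1, an adhesion molecule of all endothelium, was detected in 135 cells. All 4 rule genes were found in 79 cells, 3 in 32, 2 in 16 and PROX1 alone in 25, and 2 of the 3 cells without a general endothelial UMI were among those 25. Epithelial cells can also carry PROX1. Of 292 barcodes with PROX1 and a rule sum of at least 3, 118 carried EPCAM and 43 carried PTPRC, 21 of them both, and these were left out.

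The threshold of 3 lay in a thinly filled range. Just outside it, 23 barcodes had a sum of 2 and 47.8% of them carried a general endothelial UMI. Just inside, 7 barcodes had a sum of 3 and 71.4% carried one, 3 had a sum of 4 and all of these carried one, and 142 had a sum of 5 or more, with 99.3%.

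Among the rule genes, PROX1 (chromosome 9, 129527704 to 129583693 on the pig assembly Sscrofa11.1, as all coordinates here) had levels of 16.7 at d0, 10.9 at d1, 17.1 at d7, 16.9 at d14 and 34.9 at d21. A level here is the count of a gene summed over the cells of a library per 10000 counts of the same cells. LYVE1 (chromosome 2, 48937357 to 48954206), a hyaluronan receptor of initial lymphatic vessels, was at 21.7, 34.8, 10.6, 5.54 and 8.95 in the same order. PROX1 was thus highest at d21 and LYVE1 at d1. MMRN1 (chromosome 8, 129113951 to 129173413), a secreted multimerin, ran from 6.87 at d14 to 16.8 at d1, and FLT4 (chromosome 2, 78076008 to 78115137) from 3.1 at d21 to 5.80 at d7.

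Lymphatic endothelial cells made up well under 1% of the barcodes at every age, and their share was highest at d1. The rule found 15 cells at d0, 74 at d1, 11 at d7, 13 at d14 and 39 at d21. The shares were 0.0986% (95% exact Clopper-Pearson interval 0.0552 to 0.163) at d0, 0.523% (0.411 to 0.656) at d1, 0.107% (0.0535 to 0.192) at d7, 0.0804% (0.0428 to 0.137) at d14 and 0.231% (0.164 to 0.315) at d21. The interval of d1 overlapped no other, that of d21 overlapped that of d7 and lay just above that of d0 and above that of d14, and those of d0, d7 and d14 overlapped. These intervals cover counting error only, so differences between piglets or between preparations are not in them.

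**Figure D1:**
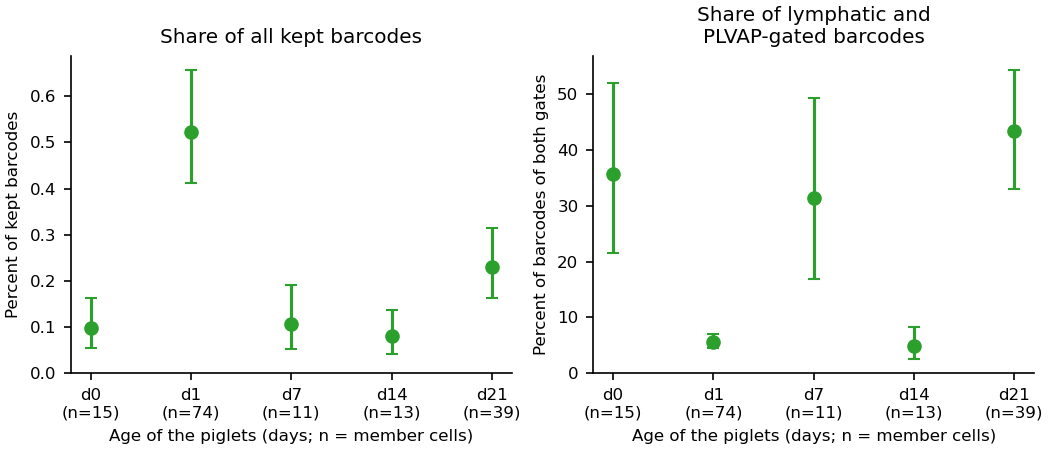
Share of lymphatic endothelial cells in each library by age, in percent of all kept barcodes (left) and of lymphatic and PLVAP-gated barcodes together (right, the comparison cells described below), as points with 95% exact intervals. On the left d1 stands highest at 0.523% (74 cells), and on the right d21 does at 43.3%, with d1 at 5.69% and d14 at 4.91%.

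The cells were of modest depth, and their depth differed between libraries. Median UMIs per cell were 2108 at d0, 3377.5 at d1, 2190 at d7, 2164 at d14 and 1983 at d21. The d1 cells were therefore the deepest and held 269144 counts in all, against 33615 at d0, 41400 at d7, 45093 at d14 and 109509 at d21. Mitochondrially encoded genes took between 5.89% of counts at d7 and 8.17% at d14. With every barcode thinned to 1000 UMIs before the rule was applied, and shallower barcodes left out, the d1 share was 0.430% and still the highest.

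RNA of other cell types was present in many members, and it weighed most at d14. Of 9 genes of other cell types (CD3E, CD79A, JCHAIN, C1QB, KRT8, DCN, COL1A1, RGS5 and HBB), at least 1 UMI was found in 73 of the 152 cells. At d14, 2 cells held 20248 of the 45093 UMIs (44.9%), and the summed level of the 10 fibroblast markers fell from 135 to 6.84 without the cells that carried 5 or more such UMIs. The pericyte and smooth muscle markers fell from 89.4 to 1.61 in the same step, so the d14 sum is partly a sum of stromal RNA. At d1, the myeloid marker level was 6.84 with and 2.00 without such cells, and 1 cell held 132 myeloid UMIs.

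At d21 the members carried lymphocyte RNA, as did other barcodes of that library. CCL5, a chemokine of T and NK cells and the most abundant of the 9 T and NK markers in the members (337 of their counts), was found in 39 of 39 cells at a level of 27.7. CCL5 was at 114 over all d21 barcodes. After thinning to 1000 UMIs, CCL5 was found in 75.0% of the d21 members, 74.6% of fibroblast barcodes and 53.6% of epithelial barcodes. At least 5 UMIs of the T and NK markers were found in 18 of the 39 members, with up to 76 in 1 cell, and where these UMIs came from was not tested. Of the defining T cell genes, CD3D was at 0 in all members and CD3E had 8 counts.

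The most abundant transcripts other than mitochondrial and ribosomal ones were general cell genes, led by TMSB10 and TMSB4X, 2 actin-binding thymosins. TMSB10 had a level of 153.8 over all members and TMSB4X of 100.2. GNG11, a G protein subunit abundant in endothelium, reached 35.7, and S100A10, a partner of annexin A2, 27.6. FABP5, a fatty acid binding protein, had levels of 98.8 at d0, 37.7 at d1, 20.5 at d7, 16.6 at d14 and 50.3 at d21. FABP5 was thus highest at d0 and d21, while FABP4, its relative in capillary endothelium, had no count in any member. These levels are 3′ counts that were not scaled by transcript length.

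What set the lymphatic cells apart from other vascular cells was then asked within each library. The comparison cells were barcodes with PLVAP, a protein of fenestrated blood capillaries, at least 3 UMIs over PLVAP, VWF, FLT1 and EMCN, and no EPCAM, PTPRC or PROX1. They numbered 27 at d0, 1227 at d1, 24 at d7, 252 at d14 and 51 at d21. Their blood endothelial label held best at d0 and d1, where the 6 general endothelial genes summed to levels of 36.8 and 32.0, close to 33.3 and 30.9 in the lymphatic cells. Even there the gate was not pure, since at d1 1054 of 1227 barcodes carried a general endothelial UMI and 267 at least 3 UMIs of the fibroblast genes COL1A2, COL3A1, ADAMDEC1 or DCN, and at d0 the 13 myeloid markers summed to 46.2. At d7 and d14 it did not hold. There the sums were 0.659 and 3.79, against 39.1 and 22.8 in the lymphatic cells, and 16 of 24 and 206 of 252 barcodes carried at least 3 UMIs of the same fibroblast genes. At d21 the sum was 13.0 and 22 of 51 barcodes carried them. They are therefore called PLVAP-gated barcodes below, and values under a stricter version of both gates are given where they bear on a finding or change it, with at least 2 general endothelial UMIs and fewer than 3 of these fibroblast genes. That version left 14, 68 and 37 lymphatic cells and 25, 931 and 21 comparison cells at d0, d1 and d21, and was chosen after the data were seen.

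Genes known from lymphatic endothelium stood far above the PLVAP-gated barcodes in every library, led by the granin SCG3, the transcription factor TBX1 and the chemokine CCL21. MHC class II and immediate early genes stood below. Of 1930 genes tested, 132 were higher (6.84%) and 102 lower (5.28%) at an adjusted p under 0.05 in edgeR's quasi-likelihood test with Benjamini-Hochberg adjustment, on counts summed per library and gate with the library as a block. Over all genes tested the median log2 fold was -0.07. Under the stricter gates 134 of 1623 genes were higher (8.26%) and 125 lower (7.70%). Of the main calls tested there, 96 of 117 higher and 46 of 71 lower genes were called again in the same direction. The number of calls depended on single libraries. The higher calls were 81 without d1 and 69 without d21, and the lower calls were 61 without d0, 39 without d1, 67 without d14 and 41 without d21. Since ages and libraries coincide, these p-values measure the spread between 5 mixed libraries and not between animals.

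**Figure D2:**
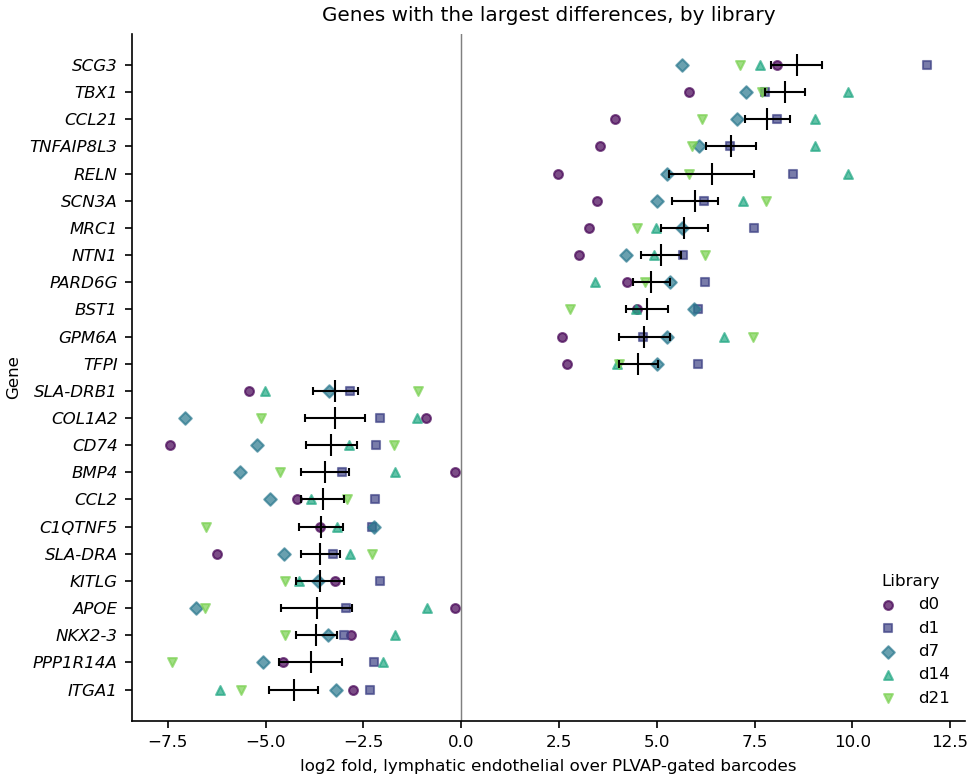
Log2 fold of lymphatic endothelial cells over PLVAP-gated barcodes for the 12 genes of largest rise and the 12 of largest fall, with 1 coloured mark per library and the fitted value with its SE in black. All 5 libraries lie right of 0 for the upper genes, led by SCG3, TBX1 and CCL21, and left of 0 for the lower ones, with the d0 marks of APOE and BMP4 close to 0. The genes were chosen for 1 direction in all libraries, so the choice set the side of the marks.

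SCG3 (chromosome 1, 120045302 to 120090035), a secretogranin also known from valve endothelium, had levels of 14.9 at d0, 3.90 at d1, 1.93 at d7, 5.54 at d14 and 17.4 at d21 in lymphatic cells. In the PLVAP-gated barcodes it was at 0 at d0, d1 and d7, at 0.0253 at d14 and at 0.100 at d21. The gates did not overlap, and d0 and d21 were several times above d7. The log2 fold was 8.58 ± 0.653 (SE, 5 libraries) with an adjusted p of 0.000279 (edgeR, Benjamini-Hochberg), a fitted value that depends on the prior count because most comparison sums were 0. SCG3 was carried by 36 of the 152 cells, a point taken up below.

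TBX1 (chromosome 14, 51289376 to 51297110), a T-box factor needed for lymphatic growth, was found in 87 cells. Its levels in the lymphatic cells were 2.97, 2.42, 6.28, 2.88 and 5.11 from d0 to d21. In the PLVAP-gated barcodes it was at 0.0102 at d1 and at 0 in the other 4 libraries. TBX1 was thus near absent from the PLVAP-gated barcodes in all libraries. Its log2 fold was 8.27 ± 0.511 (SE) with an adjusted p of 0.000145 (edgeR, Benjamini-Hochberg). As with SCG3, this fitted value depends on the prior count because most comparison sums were 0.

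Of the 14 lymphatic transcription factors listed, 5 could be tested, and TBX1 and NR2F1 were higher (list median log2 1.68). NR2F1, an orphan nuclear receptor, had a log2 fold of 3.88 and an adjusted p of 0.00691. NR2F2, which acts upstream of PROX1 in venous and lymphatic identity, had levels of 2.68, 4.31, 5.80, 4.21 and 5.30 against 0.332, 1.64, 0.165, 1.96 and 2.66. NR2F2 was higher in all 5 libraries but narrowly missed the threshold, with an adjusted p of 0.0524, and passed it under the stricter gates (log2 1.59, adjusted p 0.0138). FOXC2, GATA2, NFATC1 and MAF had too few counts to be tested, with 17, 34, 15 and 1 in all members.

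Most surface and secreted markers of lymphatic vessels were higher. Of 26 listed genes 15 were tested, and 12 were higher, none lower and 3 not called, with a median log2 fold of 2.95, against 6.84% of all genes tested called higher. Under the stricter gates 11 of 15 were higher. The list was chosen with earlier results of these data known, so its count is a description. NTS, MARCO and SNCG had no count in any member.

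CCL21 (chromosome 10, 32093783 to 32094482), which draws CCR7-bearing dendritic cells and T cells into lymphatic vessels, had levels of 2.38, 4.68, 5.31, 1.55 and 1.74 from d0 to d21. The PLVAP-gated barcodes had 0.111 at d0, 0.0163 at d1 and 0 at d7, d14 and d21. CCL21 was therefore higher in all libraries, and within the lymphatic cells d1 and d7 were above d14 and d21. Its log2 fold was 7.83 ± 0.569 (SE) with an adjusted p of 0.000279 (edgeR, Benjamini-Hochberg). Like that of SCG3, this fitted value depends on the prior count because most comparison sums were 0.

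RELN (chromosome 9, 103460855 to 103963728), a secreted glycoprotein made by lymphatic endothelium, was at 6.25, 4.72, 1.45, 2.88 and 1.37 in the lymphatic cells. It was at 1.11 at d0 and 0.0122 at d1 in the other gate and at 0 in the remaining 3 libraries. The d0 value of the other gate thus stood apart from the rest but stayed below the d0 lymphatic cells, and the log2 fold was 6.41 ± 1.09 (SE) with an adjusted p of 0.00784. Without d0 the log2 fold was 8.66 and without d1 4.91, so its size rested on these libraries.

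The scavenger receptors MRC1 and STAB1 were higher too. MRC1 had levels of 3.57, 4.16, 1.93, 3.99 and 1.64 against at most 0.332, with a log2 fold of 5.70 (adjusted p 0.00104). STAB1 had levels of 7.14, 4.98, 2.66, 3.77 and 1.64 against at most 1.33, with a log2 fold of 4.24 (adjusted p 0.00237). Both genes are also made by macrophages. Of the 13 myeloid markers 11 had counts in the members, led by C1QA (70), C1QB (52), C1QC (20) and FCER1G (19), and CD163 and S100A9 had none. The part of myeloid RNA in MRC1 and STAB1 was not tested.

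TFPI, an inhibitor of the coagulation pathway, reached 2.38, 1.82, 1.21, 2.44 and 3.65 against at most 0.332 (log2 4.53, adjusted p 0.00132). AKAP12, a kinase anchoring protein, was at 22.9, 5.09, 4.35, 10.2 and 21.7 against 2.32, 0.183, 0.659, 1.16 and 1.31 (log2 3.52, adjusted p 0.000888). AKAP12 was higher in all libraries and, like SCG3, highest at d0 and d21. FGL2 and PPFIBP1 had log2 folds of 2.95 and 2.74. CAVIN2, ECSCR, CD9 and IGFBP5 also passed, but each lost its call when at least 1 library was left out.

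Podoplanin (PDPN), the mucin-like protein used to stain lymphatic vessels, was at 5.06, 5.13, 8.70, 4.66 and 3.65 in the lymphatic cells. The PLVAP-gated barcodes held 0.111, 0.106, 5.85, 2.04 and 0.100, so their d7 and d14 libraries, in which fibroblast genes were frequent, stood apart. PDPN did not pass the test on all 5 libraries (log2 2.95 ± 0.862, adjusted p 0.0578). With the stricter gates, which used d0, d1 and d21, its log2 fold was 8.32 and its adjusted p 6.22e-05.

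Other genes among the 12 of largest rise do not belong to the lymphatic lists. TNFAIP8L3, a phosphoinositide transfer protein, had levels between 1.46 and 2.66 against at most 0.111 (log2 6.90). SCN3A, a voltage-gated sodium channel subunit, had 5.35, 2.60, 1.21, 2.22 and 5.48 against at most 0.443 (log2 5.97). The polarity protein PARD6G ran from 2.44 at d14 to 8.40 at d21, the netrin NTN1 from 0.966 to 2.17, the ADP-ribosyl cyclase BST1 from 1.77 to 3.57 and the neuronal glycoprotein GPM6A from 0.887 to 4.83. Their log2 folds were 4.86, 5.10, 4.74 and 4.68. All of these genes were higher in 5 of 5 libraries, which the choice of the 12 genes required. NTN1 was not tested under the stricter gates, and the other 11 of these 12 genes were called there.

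**Figure D3:**
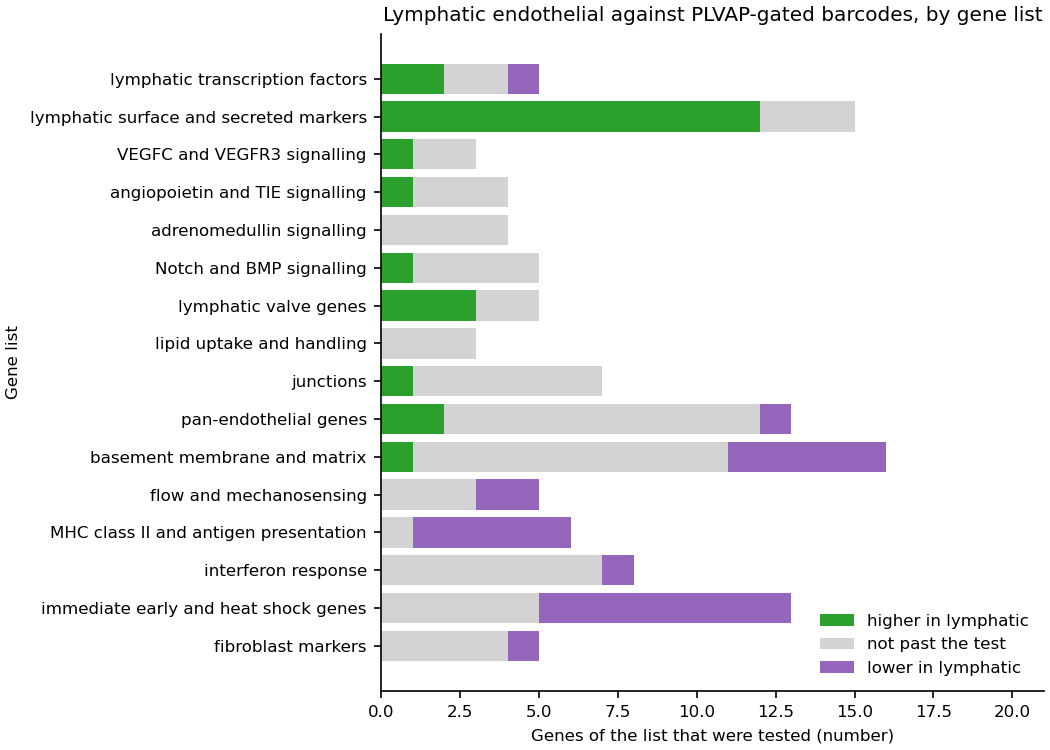
Number of tested genes of each list that were higher, not past the test or lower in lymphatic endothelial cells against PLVAP-gated barcodes, as stacked bars, for lists with at least 3 tested genes. The surface and secreted marker list has 12 of 15 tested genes higher, and the MHC class II list has 5 of 6 lower.

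In the VEGFC pathway the receptors were present and the ligands were scarce in the lymphatic cells themselves. NRP2, the VEGFC co-receptor of lymphatic vessels, was at 7.44, 4.16, 5.80, 5.99 and 6.85 against 1.22, 0.529, 1.40, 0.557 and 1.05. The gates did not overlap (log2 2.63 ± 0.270, adjusted p 0.000978). KDR (VEGFR2) had levels of 4.76, 3.72, 3.14, 3.1 and 3.84 and was not called (log2 1.99, adjusted p 0.0888). The ligand VEGFC had 3 counts in all members, and VEGFD and the processing factor CCBE1 had none. NRP1, the co-receptor of blood vessels, had 15 counts in the members and could be tested only under the stricter gates, where NRP1 and VEGFC were lower. Of the list's 14 genes 3 were tested, and 1 was higher.

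Among angiopoietin and TIE genes, ANGPT2, a TIE2 ligand needed for postnatal lymphatic remodelling, was at 3.27, 2.82, 0.483, 2.00 and 3.47 against 0.332, 0.444, 0, 0.817 and 2.46. It was higher in all 5 libraries, though by little at d21, and was called (log2 1.73, adjusted p 0.0453), a call that was lost without d0, d1 or d14, with no library in the model and with 2 libraries. TIE1 and TEK, the receptors, were not called, and neither was PTPRB, which was lower under the stricter gates (log2 -2.32, adjusted p 0.00958). The adrenomedullin receptor parts CALCRL and RAMP2 were plentiful at 6.34 and 7.60 over all members, but none of the 4 tested genes of that list was called. NOTCH1, a receptor that restrains lymphatic sprouting, was higher (log2 1.92, adjusted p 0.00237) as the only called gene of 5 tested in the Notch and BMP list, and HEY1 and HEY2 had no count. JAG1 and ENG were lower under the stricter gates.

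Of 13 tested pan-endothelial genes, ECSCR and EGFL7 were higher, CLEC14A was lower (log2 -2.12, adjusted p 0.00747) and 10 were not called (median 1.19). EGFL7 lost its call without d1, d14 or d21. The comparison gate was low in endothelial RNA at d7 and d14, and under the stricter gates none of 11 was higher and SOX17, CLEC14A and ENG were lower. CLEC14A, a C-type lectin of vessel endothelium, was thus lower in both fits.

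Adhesion and lipid genes differed less. The junction genes had 1 of 7 tested higher (AFDN, which lost its call without d21 and under the stricter gates, with an adjusted p of 0.0543), and PECAM1 and CDH5 were not called. None of 3 tested genes of lipid handling was called, and under the stricter gates CAV1 and GPIHBP1 were lower. CD36, the fatty acid translocase, had 15 counts in 5 members, all at d1, while the PLVAP-gated barcodes had levels of 12.1 at d0 and 9.23 at d1. CD36 was therefore a feature of the comparison cells at these 2 ages. In the leukocyte trafficking list CCL21 was the called gene of 2 tested. ICAM1 and CXCL12 had 14 and 9 counts in the members, and MADCAM1, the gut homing receptor of blood venules, had 19, against levels of 9.29 at d0 and 7.41 at d1 in the other gate.

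Of the blood endothelial genes outside the rule, 1 could be tested on 5 libraries (PODXL, not called), but under the stricter gates 3 of 5 tested were lower, namely CD34, SOX17 and MADCAM1, with a list median of -4.30. Among the rule genes of the comparison gate, VWF was not confined to that gate. VWF, the clotting glycoprotein, was found in 69 lymphatic cells at levels of 5.65, 3.01, 2.17, 1.11 and 3.29. FLT1, the decoy VEGF receptor of blood vessels, had 5 counts in the lymphatic cells, all at d1.

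MHC class II genes were consistently low in the lymphatic cells. SLA-DRA, the class II alpha chain that presents peptides to helper T cells, was at 0, 0.817, 0.242, 1.11 and 1.46 against 11.3, 8.16, 8.40, 8.69 and 7.33. CD74, the class II invariant chain, was at 0, 2.86, 0.483, 2.00 and 5.57 against 25.9, 13.0, 22.3, 15.3 and 18.3. Neither gene overlapped between the gates, and in the lymphatic cells both were highest at d21. The log2 folds were -3.60 ± 0.503 for SLA-DRA (adjusted p 0.00390) and -3.32 ± 0.652 for CD74 (adjusted p 0.0148). Of the list's 6 tested genes 5 were lower (median -3.08), against 5.28% of all genes tested, and B2M of class I was not called. SLA-DQA1 missed the threshold without d1.

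Myeloid and fibroblast RNA differed between the gates as well. From d0 to d21 the 10 fibroblast markers summed to 1.11, 26.1, 133, 172 and 51.3 in the PLVAP-gated barcodes. In the lymphatic cells they summed to 0.297, 6.54, 0.242, 135 and 1.00. The myeloid markers summed to 46.2 at d0 and 31.9 at d7 in the PLVAP-gated barcodes and to 0 and 0.966 in the lymphatic cells, and to 11.7 against 2.22 at d14 and 10.8 against 0.913 at d21. At d1 they summed to 1.76 and 6.84, the latter 2.00 without the 3 cells that carried 5 or more UMIs of other cells. Their part in the class II difference was not tested. All 4 tested class II chains and CD74 were also lower under the stricter gates, as was B2M (log2 -1.52).

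Immediate early genes, which respond within minutes to stimuli and to tissue handling, were lower as well. Of 13 tested genes of the immediate early and heat shock list, 8 were lower and 5 not called (median -1.53), against 5.28% of all genes tested called lower. Under the stricter gates 9 of 13 were lower. FOS was at 2.38, 6.43, 0, 0 and 2.47 in the lymphatic cells and at 18.4, 26.0, 12.9, 4.09 and 8.19 in the other gate, a log2 fold of -3.05 (adjusted p 0.0150). ATF3, EGR1 and JUN had log2 folds of -2.62, -1.78 and -1.53. FOS and JUN missed the threshold without d0, ATF3 without d21, and without the library as a block none of these 4 passed. Of the other 4 genes called lower, FOSB, JUNB and DUSP1 each missed it without at least 1 library.

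The interferon genes were mostly not called, with MX1 lower and 7 not called of 8 tested. The MX1 call was lost in 5 of the 8 alternatives that could test it, namely without d0, d1 or d14, with no library in the model and with 2 libraries (highest adjusted p 0.326). Under the stricter gates ISG15, ISG12(A) and IFI6 were lower. Within the lymphatic cells the d7 library stood far apart. IFI6 had levels of 0 at d0, 5.50 at d1, 85.5 at d7, 9.98 at d14 and 32.5 at d21, and ISG15 had 0, 0.483, 22.9, 0.444 and 5.94. At d7 IFI6 was found in 9 of 11 cells, and the PLVAP-gated barcodes of that library held 39.6. The whole interferon list was at 174 in the d7 lymphatic cells, 72.3 in the PLVAP-gated barcodes and 47.3 in all barcodes of that library.

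Matrix genes were partly lower, with 5 of 16 tested lower against 5.28% of all genes tested, and 1 higher against 6.84%. The basement membrane collagens COL4A1 and COL4A2 were lower (log2 -1.27 and -1.14), with COL4A1 at 10.7, 12.9, 9.42, 24.8 and 9.31 against 28.0, 26.1, 18.2, 32.6 and 32.9. The d14 value was the highest and came from the library with 2 cells rich in stromal RNA. SPARC, SPARCL1 and TIMP2 were also lower, TIMP3 was higher and 10 of 16 tested genes were not called. Under the stricter gates TIMP3 was not called (log2 0.51, adjusted p 0.426), NID1 and TIMP1 were higher, and HSPG2 was lower beside both collagens, SPARC and SPARCL1. COL4A1 kept its call when any library was left out and lost it among cells with fewer than 5 UMIs of the 9 genes of other cells, and the other 5 lost theirs without at least 1 library.

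Of 5 tested genes of flow sensing, CYR61 and CTGF, targets of the mechanosensitive YAP pathway, were lower (log2 -2.22 and -2.13), and the flow-induced factors KLF2 and KLF4 were not called. CYR61 missed the threshold without d21, and CTGF without d0, d1 or d21. Of the lists for other cell types, the fibroblast list had 1 of 5 tested genes lower (COL1A2) and the epithelial, T and NK, and pericyte lists had 1 tested gene each, not called. The B and plasma cell, mast cell, myeloid, glial, erythroid, and enteroendocrine and tuft lists had none with enough counts. The 1 tested proliferation gene, HMGB2, was not called. Under the stricter gates TOP2A, a topoisomerase of dividing cells, could also be tested and was higher (log2 1.44, adjusted p 0.0439), with 78 of its 86 counts in the members from d1.

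The remaining genes of largest fall included ITGA1, a collagen-binding integrin chain, with 14 counts in the lymphatic cells and levels of 2.99, 2.14, 1.07, 8.01 and 11.3 in the other gate (log2 -4.28, adjusted p 0.00479). NKX2-3, a homeobox factor of gut blood vessels and mesenchyme, had 7 counts in the lymphatic cells and levels of 0.996 to 1.92 in the other gate (log2 -3.71). KITLG, CCL2, C1QTNF5, BMP4, PPP1R14A, APOE and COL1A2 fell too, and most of them are also made by stromal cells or macrophages. ITGA1 was lower under the stricter gates as well, whereas NKX2-3 and the other 7 were not tested there. Of the APOE counts in the members, 49.1% came from 1 cell, and APOE and COL1A2 lost their calls without d0, d1 or d21.

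Among the lymphatic cells themselves, 23.7% carried SCG3, and these cells differed from the others in several valve genes. The division was made after the values were seen and is a description. SCG3 UMIs were found in 4 of 15 cells at d0, 10 of 74 at d1, 3 of 11 at d7, 4 of 13 at d14 and 15 of 39 at d21, or 36 of 152 in all. The shares of d1 and d21 were 13.5% (6.68 to 23.5) and 38.5% (23.4 to 55.4), with intervals that just touched. Thinned to 1000 UMIs, SCG3 was found in 8.45% of d1 and 37.5% of d21 lymphatic cells. In epithelial barcodes, which stand for the background of free RNA, the thinned shares were 0.402% and 0.147%, and no thinned PLVAP-gated barcode held it at either age.

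All 36 cells with SCG3 carried a general endothelial UMI, 33 carried PECAM1, and 1 carried any of 9 enteroendocrine genes (CHGA, CHGB, SCG2, SCG5, NEUROD1, INSM1, PYY, SST and GCG). PROX1 was the only rule gene in 18 of them, and in 7 of the 116 cells without SCG3. The 18 all carried a general endothelial UMI, and 17 of them carried GJA4, NEO1, FOXC2 or CLDN11. Of the 7 without SCG3, 5 carried a general endothelial UMI and 4 carried at least 1 of the same genes. Such a gene was found in 29 of all 36 cells with SCG3 and in 43 of the 116 without. These counts were not thinned to a common depth.

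GJA4 (connexin 37), a gap junction protein of valve cells, was at 13.4 in cells with SCG3 and at 1.96 in those without. FOXC2, the forkhead factor of valve formation, was at 0.920 and 0.112, and CLDN11, a claudin of valves, at 0.566 and 0.0559. FN1 (fibronectin) was at 6.58 and 1.65, NEO1 at 3.33 and 0.448, and the stretch-gated channel PIEZO1 at 2.62 and 0.755. Over all ages pooled, the 6 were thus more abundant with SCG3, as were FABP5 (81.3 and 25.5), AKAP12 (18.8 and 7.02) and SLC41A1, a magnesium transporter (3.33 and 0.364). FOXC2 and CLDN11 rested on 17 and 10 counts, and neither was told apart within an age, as given below.

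Several surface and secreted markers ran the other way over all ages pooled. MRC1 was at 0.496 with and 4.5 without SCG3, STAB1 at 1.42 and 5.15, RELN at 1.42 and 4.53, CAVIN2 at 5.73 and 18.4 and CCL21 at 1.91 and 4.34. Not all valve genes were higher with SCG3, since GJA1 (connexin 43), also of the valve list, was at 1.42 with and 6.15 without. The rule genes LYVE1 (8.92 and 29.4), MMRN1 (3.89 and 17.5) and FLT4 (1.06 and 4.95) were lower with SCG3 too, but the rule shapes their counts among the members. PECAM1, at 13.6 in both, SOX18, at 10.5 and 8.45, and TBX1, at 3.04 and 3.55, were close in the 2 kinds of cell.

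Cells with SCG3 were deeper, with a median of 3334 UMIs against 2471.5 in cells without. After thinning to 1000 UMIs, GJA4 was found in 52.9% of cells with and 14.4% of those without SCG3, LYVE1 in 29.4% and 79.8%, MMRN1 in 26.5% and 72.1%, and PECAM1 in 70.6% and 75.0%. The cells with SCG3 came from the ages in unequal shares, so the pooled levels mix ages. Within d1, GJA4 was at 12 with and 1.90 without SCG3, FN1 at 4.56 and 0.634, MRC1 at 0.622 and 4.93 and LYVE1 at 23.2 and 37.3, while PIEZO1, at 0.830 and 0.543, had overlapping intervals. Within d21, GJA4 was at 15.4 and 4.19, FN1 at 5.68 and 0.364, MRC1 at 0.183 and 3.1, PIEZO1 at 3.84 and 0.911 and LYVE1 at 0.732 and 17.1. GJA4, FN1 and MRC1 thus differed in the same direction at both ages, and the LYVE1 difference was much larger at d21. FOXC2 was at 0.415 with and 0.0453 without SCG3 at d1 and at 1.83 and 0.364 at d21, with overlapping intervals at both ages. CLDN11 had 0 counts with and 1 without SCG3 at d1, and 3 and 1 at d21, where its intervals overlapped too. SLC41A1 overlapped at d1 (0.622 and 0.181) and not at d21 (7.14 and 1.09). RELN was lower with SCG3 at d1 (2.70 and 5.16) and d21 (0.366 and 2.37), with overlapping intervals at both ages. STAB1 (0.732 and 2.55) and CCL21 (1.28 and 2.19) overlapped at d21 and not at d1.

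**Figure D4:**
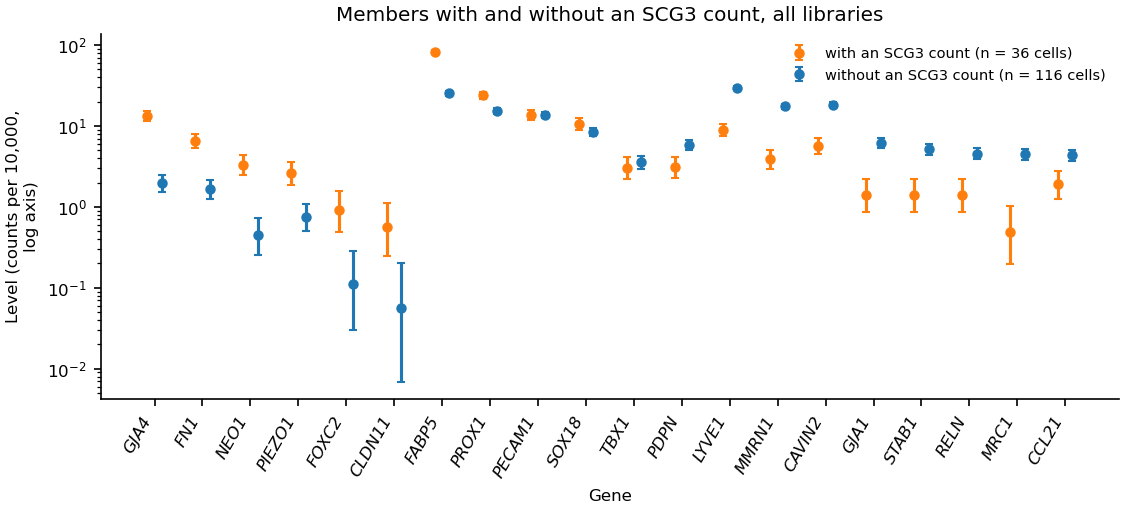
Levels of 20 genes in the 36 lymphatic endothelial cells with an SCG3 UMI and the 116 without, all libraries pooled, as counts per 10000 on a log axis with 95% Poisson intervals of counting error. GJA4, NEO1 and FOXC2 lie higher with SCG3, MRC1, RELN, STAB1 and GJA1 lie lower, PECAM1 is level, and PROX1, LYVE1 and MMRN1 are rule genes whose counts the choice of cells shapes.

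In the comparison with PLVAP-gated barcodes, the valve list had 3 of 5 tested genes higher and none lower (median 1.68), against 6.84% of all genes tested called higher. Besides SCG3, ITGA9, an integrin chain needed for valve leaflets, was higher (log2 2.92, adjusted p 0.0103). GJA4 had levels of 5.06, 3.72, 0.966, 6.87 and 9.77 against 2.21, 0.554, 0, 2.29 and 4.77 (log2 1.68, adjusted p 0.0319). GJA4 was not called without d0, d1, d14 or d21, nor among members with MMRN1, LYVE1 or FLT4. GJA1 and FN1 were not called, and under the stricter gates GJA1 was higher (log2 2.68, adjusted p 0.00425).

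At least 20 lymphatic cells were found at d1 and d21, so these ages were compared as single libraries, with no test and with exact intervals that cover counting error only. At d21 valve genes were more abundant and proliferation genes and several surface markers less abundant than at d1. Of 3215 genes with at least 20 counts in the pair, 483 were higher at d21 by more than 2-fold (15%) and 390 lower (12.1%), with a median log2 of 0.05. The interval itself lay past 2-fold for 97 genes that were higher and 71 that were lower.

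Of the 9 valve genes with enough counts, 7 were higher past 2-fold, with a median log2 of 1.39. SCG3 went from 3.90 to 17.4 (log2 2.16), GJA4 from 3.72 to 9.77 (1.39), and NEO1, a netrin receptor, from 0.223 to 4.2 (4.24). In the PLVAP-gated barcodes of the 2 libraries NEO1 was at 0.145 and 0.352, SCG3 at 0 and 0.100 and GJA4 at 0.554 and 4.77. GJA4 was thus higher at d21 in both gates, and its difference was not particular to the lymphatic cells. GATA2, PIEZO1, FN1 and ITGA9 were the other 4. The SCG3 value depended on how cells were chosen and weighted, with a log2 of 0.74 among members with MMRN1, LYVE1 or FLT4 and of 1.62 as a mean over cells. The share of cells with SCG3 also differed between the 2 libraries, as given above.

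The surface and secreted markers were mixed, with 4 of 18 higher and 7 lower (median -0.26). CCL21 was at 4.68 at d1 and 1.74 at d21 (log2 -1.43, interval -2.21 to -0.73). RELN, STAB1 and MRC1 had log2 values of -1.78, -1.60 and -1.34. AKAP12 and IGFBP5 were higher, by 2.09 and 2.40. CCL21, RELN, STAB1 and MRC1 were thus lower at d21, and AKAP12 was several times higher. AKAP12 was also higher at d21 in the PLVAP-gated barcodes, at 0.183 and 1.31, so its difference was not particular to the lymphatic cells. Among members with MMRN1, LYVE1 or FLT4, CCL21 and STAB1 stayed lower but within 2-fold (-0.88 and -0.97), RELN was at -1.35 and AKAP12 at 2.15.

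In cells without SCG3, CCL21 was at 5.30 at d1 and 2.19 at d21, RELN at 5.16 and 2.37 and STAB1 at 5.66 and 2.55. The intervals of these 3 genes did not overlap between the ages. MRC1, at 4.93 (4.05 to 5.95) and 3.1 (1.80 to 4.96), was lower at d21 with overlapping intervals.

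Detection in single cells, thinned to 1000 UMIs in the 71 of 74 d1 cells and 32 of 39 d21 cells that were deep enough, ran the same way. CCL21 was found in 40.8% of cells at d1 and 12.5% at d21, against 0.106% and 0% of epithelial barcodes. RELN was found in 39.4% and 12.5%, STAB1 in 42.3% and 9.38%, and AKAP12 in 35.2% and 71.9%. AKAP12 was also found more often at d21 in PLVAP-gated barcodes (1.76% and 13.6%) and fibroblast barcodes (13.2% and 34.9%). In epithelial barcodes it was at 1.29% and 1.77%. PECAM1 was nearly level, at 81.7% and 78.1%. IFI6, at 28.2% and 71.9%, was found in 12.9% and 71.3% of epithelial barcodes. Its share was also higher at d21 in PLVAP-gated barcodes (47.9% and 88.6%) and fibroblast barcodes (13.7% and 93.2%). The difference was thus not particular to the lymphatic cells, and where their IFI6 UMIs came from was not tested.

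By summed level, the proliferation genes were highest at d1, with 7.73 at d0, 23.4 at d1, 4.59 at d7, 1.55 at d14 and 3.56 at d21. Of 9 such genes with enough counts, 8 were lower at d21 past 2-fold and none higher (median -3.99). TOP2A had 78 counts in 9 cells at d1 and 2 counts at d21 (log2 -3.99), with 39.5% of its counts over all members in 1 cell, and CENPF, a kinetochore protein, had 78 counts at d1 and 0 at d21. At least 3 of the 17 proliferation genes were detected in 14 of 74 cells at d1, 1 of 15 at d0, 2 of 11 at d7, 0 of 13 at d14 and 1 of 39 at d21. As shares of cells, d1 and d7 were close, at 18.9% (10.7 to 29.7) and 18.2% (2.28 to 51.8). The 97 cell cycle genes of Seurat's lists summed to 70.9 at d1 and 29.2 at d21. The d1 cells were also deeper, with medians of 3377.5 and 1983 UMIs. Thinned to 1000 UMIs, a setting added after the data were seen, at least 3 of the 17 genes were found in 7 of 71 cells at d1, 9.86% (4.06 to 19.3), in 1 of 13 at d0 and in none of 11, 11 and 32 at d7, d14 and d21. The upper limit at d21 was 10.9%, so these shares of cells did not tell d1 from the other ages at this depth.

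The genes of largest difference between the 2 ages included some that differed across the whole library. CCL5 (0.409 to 27.7) and the lymphocyte surface gene CD52 (log2 4.41, with 42.3% of its d21 counts from 1 cell) were higher at d21. So was LOC100152327 (0 to 45 counts, at least 36.9-fold higher by the floor of 3 counts at d1). LOC100152327 was at 0.166 and 71.7 in all barcodes of these libraries, and CCL5 at 2.07 and 114. SLC41A1 was higher, from 0.260 to 4.11 (log2 3.98), but level at 0.263 and 0.251 in the PLVAP-gated barcodes, while the ephrin receptor EPHB6 was higher in the members (log2 5.62, with 40.0% of its d21 counts from 1 cell), in the PLVAP-gated barcodes (4.77) and in all barcodes (4.74). On the other side, MXD3, a MAX partner of cycling cells, had 32 counts at d1 and 0 at d21, which is at least 4.34-fold lower at d21, and TYMS, the thymidylate synthase of nucleotide synthesis, had 21 at d1 and 0 at d21. C1QC also went from 20 to 0, but 90.0% of its counts were in 1 cell.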

How the data were processed

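The authors deposited, per library, a matrix of whole-number UMI counts per gene and barcode; per the submitters' processing notes these counts came from Cell Ranger 3.1.0 with STAR and the pig build susScr11. The labels and the study's methods name different versions of the 10x kit. Counts were used as deposited, with no normalization by the authors. Barcodes with at least 200 genes were kept, with no mitochondrial limit.

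The members and gene lists were chosen with earlier results of these data known. Levels are summed counts per 10000. Counts were summed per library and gate in libraries with at least 10 cells of both gates and tested with edgeR 4.0.16 (quasi-likelihood, TMM, filterByExpr, library as block, genes of both gates left out, Benjamini-Hochberg, threshold 0.05) in R 4.3.3, after the script was tested on simulated data. Ages were compared without a test, with exact Poisson and conditional binomial intervals at the 95% level and a floor of 3 counts. The library totals and cell numbers set the precision.

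Genes named were the rule genes, up to 4 of highest level in each list and those called, the 15 most abundant, and the 12 largest rises and falls with at least 50 counts in the higher gate and 1 direction in all libraries. By age they were the 6 largest rises and falls whose interval lay past 2-fold. FOXC2, CLDN11, NFATC1, MAF, NRP1, VEGFC and other genes of few counts were named after their values were seen. Alternatives included DESeq2 1.42.0, RLE scaling, no filter, other gate sums, thinning and leaving out each library. Gene coordinates are RefSeq's. Some genes that the rule would name are not reported here.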

Additional observations from a re-analysis of the deposited data

How the results depend on the processing

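No paired analysis was possible because each age was 1 library and all were replicate 1; the test of the 2 gates already blocked on the library. The shares at d0, d1, d7, d14 and d21 were 0.217%, 0.948%, 0.263%, 0.161% and 0.426% with no limit on EPCAM and PTPRC, and 35.7%, 5.69%, 31.4%, 4.91% and 43.3% of lymphatic and PLVAP-gated barcodes together, where d21 and not d1 was highest. Under 20% mitochondrial counts d0 was 0.219%. With PROX1 of at least 2 d1 was 0.396%, with thinning to 1000 UMIs d14 was 0.0421%, and among members with MMRN1, LYVE1 or FLT4 (chosen after seeing the data) d21 was 0.160%. Higher and lower calls numbered 317 and 712 with no filter (15573 genes tested), 56 and 8 with at least 20 cells in both gates (2 libraries), and ranged from 69 to 137 and from 39 to 99 when 1 library was left out. DESeq2 gave 196 and 169, no library in the model 114 and 55, cells without any UMI of the 9 genes 78 and 90, and cells with fewer than 5 of them (chosen after seeing the data) 115 and 66. Of 336 values of the 24 genes of largest difference, 313 stayed on their side of the threshold and 23 missed it; of 592 values of 39 other called genes from the lists, 144 missed it, 36 of them with 2 libraries, 19 with no library in the model and 18 each without d0 and d1. None changed direction. CCL21 detection at d1 was 18.9% at 500 UMIs and 66.2% unthinned, and RELN 74.3% unthinned; both were at 2.56% at d21 with 500 UMIs. The 11 to 15 cells at d0, d7 and d14 limit every value of those ages.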

Other observations

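PROX1 was also found outside the endothelium. Of 21069 barcodes with EPCAM, the epithelial adhesion molecule, 710 carried PROX1. At least 1 UMI of the 9 enteroendocrine genes CHGA, CHGB, SCG2, SCG5, NEUROD1, INSM1, PYY, SST and GCG was found in 27.3% of these 710 and in 12% of the 20359 barcodes with EPCAM and without PROX1. From d0 to d21 the shares were 23.9%, 26.6%, 27.9%, 41.2% and 33.8% with PROX1, and 9.23%, 17.0%, 9.97%, 10.9% and 6.37% without. Barcodes with PROX1 were deeper, with a median of 10843 UMIs against 4660. With every barcode thinned to 1000 UMIs before the enteroendocrine genes were read, and shallower ones left out (chosen after seeing the data), the shares were 12.3% (95% exact interval 9.99 to 15.01, counting error only) of 697 barcodes with PROX1 and 4.02% (3.75 to 4.31) of 18863 without. The thinned share was higher with PROX1 in all 5 libraries, and at d14 the intervals overlapped. Among the 152 lymphatic endothelial cells, 5 carried such a UMI.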
